A study of Homo sapiens with 12 samples.

Results

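The Krüppel-like factors (KLFs) were described in HCT116 cells, a human colorectal cancer line, after silencing of the nuclear receptor LRH-1. The members were chosen by name, as every probe carrying the symbol of KLF2, KLF3, KLF4, KLF5, KLF6, KLF7, KLF9, KLF10, KLF11 or KLF13. Of these 10 genes, 9 were measured, on 13 of 16381 probes, and KLF11 was not analysed here. KLF10 had 3 probes, KLF3 and KLF4 had a pair each, and the other 6 genes had 1 each. The arrays were Illumina HumanHT-12 v4 BeadChips. All cells were of this line, whose p53 is wild-type, and received 5 nM of double-stranded RNA by lipid transfection, and their RNA was taken after 24 h. The control group received a non-targeting siRNA against luciferase (siLUC), and the others received siLRH-1 #1 or siLRH-1 #2, which are different siRNAs against LRH-1, with 4 independent biological replicates in each of the 3 groups. Since the transcript of LRH-1 was not analysed here, the extent of its silencing on these arrays is not given. The values are log2 intensities, and an intensity depends on the probe as well as on the transcript, so each probe was compared only with itself across the groups.

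KLFs are transcription factors that bind GC-rich and CACCC sequences through zinc fingers near their carboxyl end. The sequences before the zinc fingers differ among members and recruit coactivators or corepressors. In the gut, KLF4 is known as a factor of differentiated surface epithelium, where it restrains proliferation, and KLF5 as a factor of the proliferating crypt. LRH-1, a nuclear receptor that binds DNA as a monomer, is expressed in the crypts.

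KLF2 and KLF6 were the KLF genes that passed the test against siLUC, both with siLRH-1 #1 alone. KLF2 rose with siLRH-1 #1, by a log2 fold change of 0.34, whereas its value with siLRH-1 #2 lay on the other side of the control, at −0.19. KLF6 fell by 0.19 with siLRH-1 #1 and had −0.18 with siLRH-1 #2. All comparisons came from 1 linear model of the 12 arrays in limma, and a probe was called at a Benjamini-Hochberg adjusted p under 0.05 over all 16381 probes. Of the 13 KLF probes, 2 were called with siLRH-1 #1, where 17.2% of all probes were called. With siLRH-1 #2, 0 of 13 were called by limma, against 5.71% of all probes, and 2 had an unadjusted p under 0.05. Calls with both siRNAs on the same side of the control were made for 0 KLF probes and for 3.24% of all probes. The difference between the siRNAs was called for 1 KLF probe, that of KLF2, and for 12.6% of all probes. These shares of KLF probes were no higher than those of all probes. Overlap of groups was looked at only for the genes named here, and the share of all probes with groups apart is not given. As the siRNAs were compared with the same siLUC arrays, their fold changes are given side by side.

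**Figure D1:**
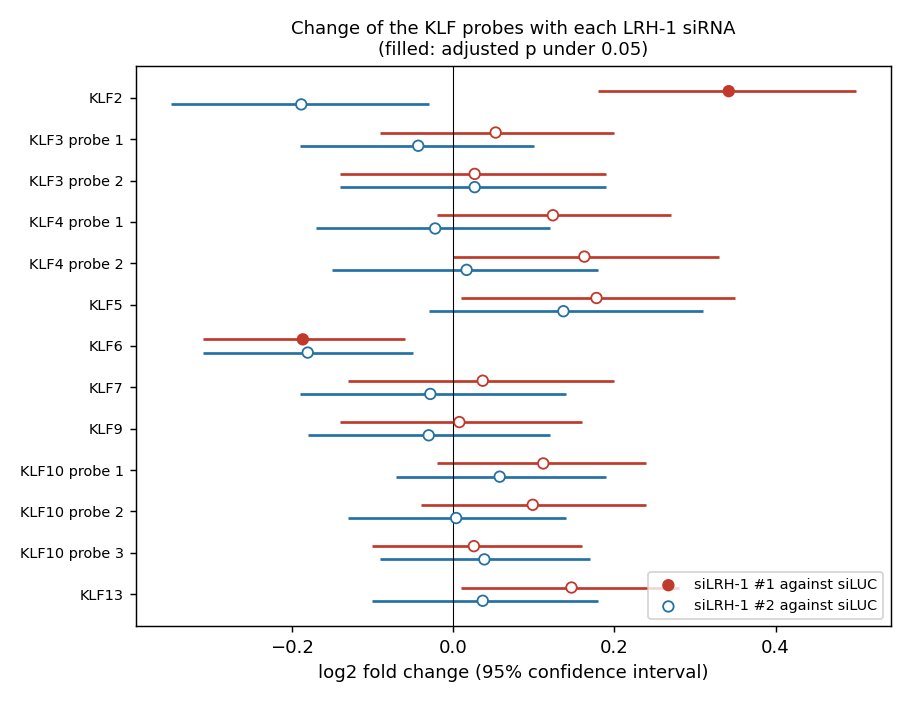
Change of the 13 KLF probes with siLRH-1 #1 (red) and siLRH-1 #2 (blue) against siLUC. The x axis gives the log2 fold change with its 95% confidence interval from limma, and filled points are those with an adjusted p under 0.05. Filled points stand only at KLF2 and KLF6 with siLRH-1 #1, and KLF2 is the probe whose intervals for the siRNAs lie on opposite sides of 0.

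The arrays also fell into sets that bear on these values. For each probe, the mean over a set of 5 arrays was nearly equal to the mean over the other 7, with a root mean square difference of 0.0041 on the log2 scale over all probes, while the next closest split of the arrays gave 0.0391. The set of 5 held siLUC replicate 2, siLRH-1 #1 replicate 3 and siLRH-1 #2 replicates 2, 3 and 4, and the set of 7 held the other arrays, with 1 of siLRH-1 #2. The labels do not name these sets, and how the equal means arose is not given in the sources used here. Of the siLRH-1 #2 arrays 3 were in the set of 5 and 1 in the other, while siLUC and siLRH-1 #1 each had 1 and 3. If the means were made equal before deposit without regard to the siRNA, part of a difference of siLRH-1 #2 from the other groups would have been removed with them, which was not tested, whereas siLRH-1 #1 and siLUC have the same split. A model with the set as a block, and the values within each set, are therefore given beside the results they touch. With this block 8.72% of all probes were called for siLRH-1 #2 against siLUC. For the difference between the siRNAs, 2482 of 16381 probes were called with it, against 2068 without it.

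KLF2 is known for keeping endothelium and lymphocytes quiescent, and in endothelium it is induced through the kinase ERK5 and MEF2 factors. Its probe (ILMN_1735930) was among the bright ones, above 95.4% of all probes by its mean. The siLUC arrays had log2 intensities of 11.24, 11.50, 11.26 and 11.31. With siLRH-1 #1 the values were 11.74, 11.56, 11.82 and 11.55. With siLRH-1 #2 they were 10.94, 11.23, 11.19 and 11.20. Each siLRH-1 #1 array was thus above each siLUC array, and each siLRH-1 #2 array was below each siLUC array, although the highest siLRH-1 #2 array and the lowest siLUC array were only 11.23 and 11.24. The group means were 11.33 ± 0.12 (SD, n = 4) for siLUC, 11.67 ± 0.14 for siLRH-1 #1 and 11.14 ± 0.13 for siLRH-1 #2.

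The rise of KLF2 with siLRH-1 #1 was a log2 fold change of 0.34 (standard error 0.078, adjusted p = 0.00285 from limma), or 26.8% on the linear scale. With siLRH-1 #2 the log2 fold change was −0.19 (95% interval −0.35 to −0.03) and did not pass the test (adjusted p = 0.190 from limma). The siRNAs differed from each other by 0.53 (95% interval 0.37 to 0.69, adjusted p = 4e-05 from limma), a level 1.44-fold higher with siLRH-1 #1. This difference in KLF2 between the siRNAs was called in all 27 alternative settings, of which those with 1 array set alone have a single array of siLRH-1 #1 or of siLRH-1 #2.

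Within each array set, where some groups have a single array, the order of the KLF2 levels was the same. In the set of 5, siLRH-1 #1 stood at 11.82, siLUC at 11.50 and the siLRH-1 #2 arrays at 11.19 to 11.23. In the set of 7, the siLRH-1 #1 arrays stood at 11.55 to 11.74, the siLUC arrays at 11.24 to 11.31 and siLRH-1 #2 at 10.94. The log2 fold change of KLF2 with siLRH-1 #2 was −0.29 in the set of 5 and −0.33 in the set of 7, where neither was called (adjusted p = 0.185 and 0.143 from limma). With the set as a block it was −0.31 and was called (standard error 0.067, adjusted p = 0.00408 from limma), and that of siLRH-1 #1 remained 0.34 (adjusted p = 0.000242). The difference in KLF2 between the siRNAs was 0.65 with this block (adjusted p = 1.84e-07 from limma). Without siLUC replicate 2 and siLRH-1 #2 replicate 1 together, a setting chosen after the data were seen, the value with siLRH-1 #2 was −0.06 (adjusted p = 0.950). It was −0.13 without siLUC replicate 2 and −0.12 without siLRH-1 #2 replicate 1.

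**Figure D2:**
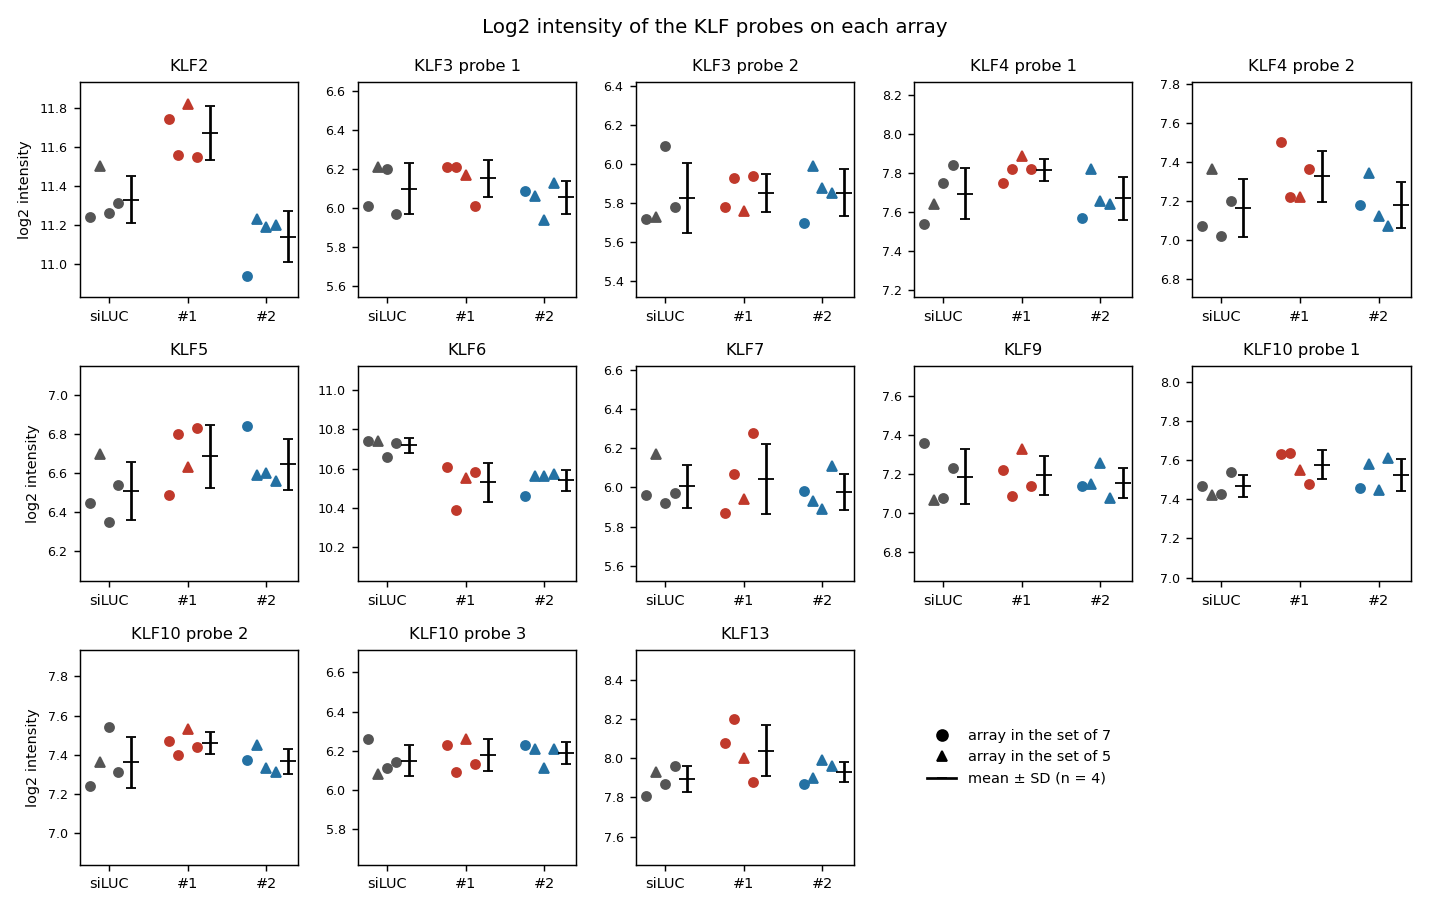
Log2 intensity (y axes, each spanning 1.1 units) of the 13 KLF probes on the 4 arrays of siLUC (grey), siLRH-1 #1 (red) and siLRH-1 #2 (blue), with the mean ± SD of each group in black. Circles are arrays of the set of 7 and triangles arrays of the set of 5. The groups are apart for KLF2, and both siRNA groups lie below siLUC for KLF6, while the groups overlap for every other probe. The share of all probes with groups apart is not given here.

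KLF6 is a widely expressed factor that is known as a growth suppressor in prostate and colorectal tumours and as an activator of the p21 gene CDKN1A. Its probe (ILMN_1735014) was also bright, above 92.8% of all probes. The siLUC arrays had 10.74, 10.74, 10.66 and 10.73, the siLRH-1 #1 arrays 10.61, 10.39, 10.55 and 10.58, and the siLRH-1 #2 arrays 10.46, 10.56, 10.56 and 10.57. All 8 knockdown arrays were below all 4 siLUC arrays, and the knockdown groups overlapped with each other. KLF6 fell by 0.19 on the log2 scale with siLRH-1 #1 (standard error 0.062, adjusted p = 0.0381 from limma), which is a level of 0.879 times that of siLUC. With siLRH-1 #2 the log2 fold change was −0.18 (95% interval −0.31 to −0.05), with an unadjusted p of 0.00739 and an adjusted p of 0.0917 from limma. The siRNAs differed by −0.01 (95% interval −0.13 to 0.12).

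The call of KLF6 lay close to the threshold. With siLRH-1 #1 it was kept in 15 of 27 alternative settings, with values between −0.21 and −0.14, and it was lost without siLUC replicate 1, 2 or 4 (adjusted p = 0.0868, 0.0814 and 0.0742) and without siLRH-1 #1 replicate 2 or 3 (adjusted p = 0.154 and 0.0616). With siLRH-1 #2 it was called in 2 of 27 settings, both of which test fewer features. These were probes with a mean log2 of at least 7 (adjusted p = 0.0322) and the mean of the probes of each gene (adjusted p = 0.0409), and in both settings KLF6 passed with both siRNAs. With the array set as a block KLF6 had −0.19 with siLRH-1 #1 and −0.21 with siLRH-1 #2 (adjusted p = 0.04 and 0.063 from limma). Within the set of 5 arrays the siLRH-1 #1 value of KLF6 was −0.19 and the siLRH-1 #2 value −0.17, and within the set of 7 they were −0.19 and −0.25, none of them called.

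**Figure D3:**
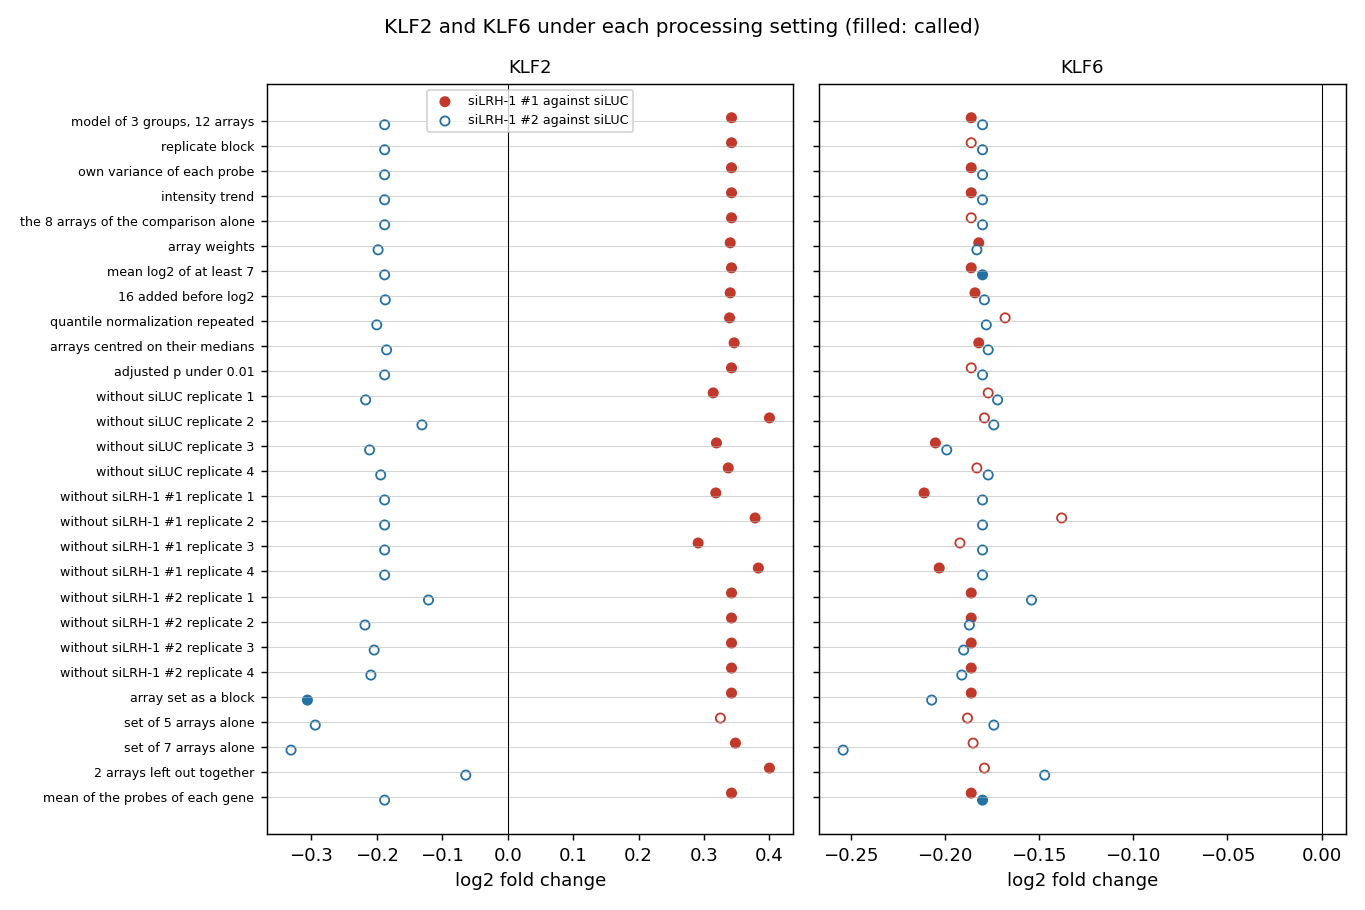
Log2 fold change (x axes) of KLF2 (left) and KLF6 (right) with siLRH-1 #1 (red) and siLRH-1 #2 (blue) against siLUC in the model of 3 groups and in 27 alternative settings (rows), with filled points for called values. KLF2 keeps opposite signs for the siRNAs in every row, and KLF6 is below 0 in every row while its calls come and go.

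The sequences before the transcription starts of these genes, KLF2 and KLF6, are shown because they are the members whose probes were called and whose patterns differed. They are the 250 bases upstream of the start in RefSeq (GRCh38.p14), KLF2 at chr19:16324576-16324825 on the plus strand and KLF6 at chr10:3785210-3785459 on the minus strand, each read 5′ to 3′ along the gene. Capitals mark the GC box GGGCGG on either strand and, in KLF2, the single match to the MEF2 consensus.
KLF2: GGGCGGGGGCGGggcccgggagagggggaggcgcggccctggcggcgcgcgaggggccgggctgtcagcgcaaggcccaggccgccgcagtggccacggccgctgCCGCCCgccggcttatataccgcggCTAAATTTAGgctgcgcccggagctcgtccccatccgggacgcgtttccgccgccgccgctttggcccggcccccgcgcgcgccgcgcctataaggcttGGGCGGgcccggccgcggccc
KLF6: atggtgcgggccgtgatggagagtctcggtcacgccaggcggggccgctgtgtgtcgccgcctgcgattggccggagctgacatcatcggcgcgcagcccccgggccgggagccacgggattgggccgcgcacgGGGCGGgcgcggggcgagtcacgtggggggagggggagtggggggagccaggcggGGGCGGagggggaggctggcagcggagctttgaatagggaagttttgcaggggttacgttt

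The KLF2 sequence held 4 GC boxes, of which a pair lay side by side at its far end, and the MEF2 match at −120 to −111, counted from the start. The KLF6 sequence held 2 GC boxes, at −116 and −61, and between them the E-box CACGTG. Of 7 measured KLF genes with an entry in the promoter table, KLF2, KLF4, KLF5, KLF6, KLF7, KLF9 and KLF13, 11 upstream sequences were searched on both strands, since KLF5 and KLF7 have several starts. GC boxes were in 6 of the 11, against 42.6% of 35116 upstream sequences of the same length. The MEF2 consensus was matched in 1 of the 11 and in 0.515% of all. The box CACCC was in 5 of the 11 and in 54.7% of all, the E-box in 3 of the 11 and in 6.34% of all. The letters CAAGGNCA, a form of the LRH-1 site, were in 0 of the 11 and in 4.51% of all. A match to these letters is a description of the sequence and no evidence of binding. The GC content was 80.0% upstream of KLF2 and 72.4% upstream of KLF6.

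**Figure D4:**
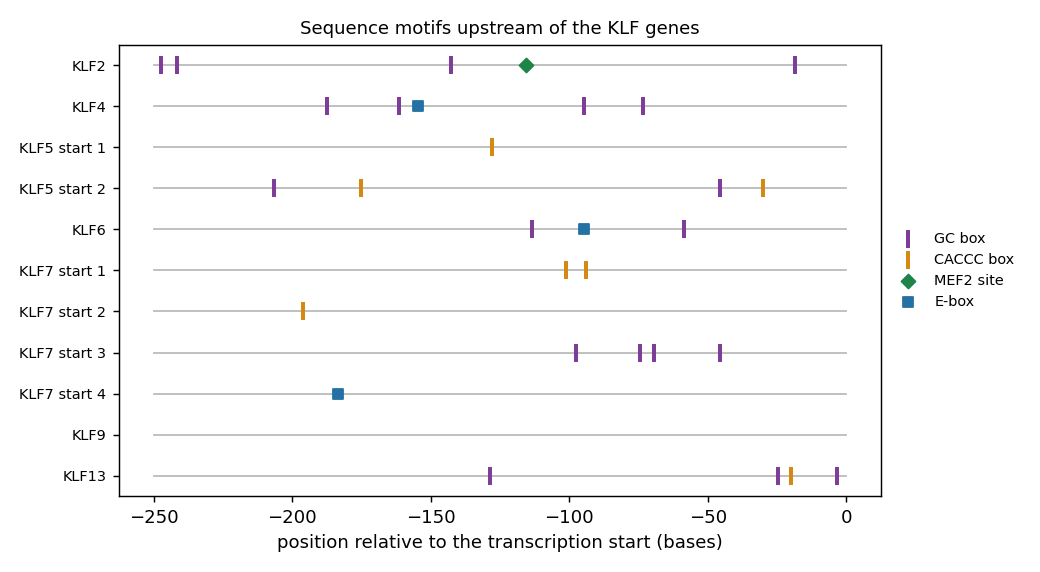
Positions of the GC box, the CACCC box, the MEF2 consensus and the E-box in the 250 bases before each RefSeq start of the KLF genes (x axis, bases from the transcription start). The MEF2 match stands only in the KLF2 row among these 11 sequences, and the KLF9 row is empty.

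KLF4 and KLF5, the members with known roles in the intestinal epithelium, did not pass the test with either siRNA. The brighter KLF4 probe had 7.54, 7.64, 7.75 and 7.84 with siLUC, 7.75, 7.82, 7.89 and 7.82 with siLRH-1 #1, and 7.57, 7.82, 7.66 and 7.64 with siLRH-1 #2. The groups overlapped, and the log2 fold changes were 0.12 (95% interval −0.02 to 0.27) with siLRH-1 #1 and −0.02 (−0.17 to 0.12) with siLRH-1 #2. The second KLF4 probe had 0.16 (0 to 0.33) and 0.02 (−0.15 to 0.18). Both probes thus lay higher with siLRH-1 #1, with intervals that reached 0 (adjusted p = 0.271 and 0.183 from limma). The direct difference between the siRNAs was 0.15 on each KLF4 probe (adjusted p = 0.212 and 0.286 from limma). KLF5 ranked above 53.3% of all probes but was dim. Its mean log2 of 6.61 was close to the median of all probe means, 6.48, and under 7. Its values were 6.45, 6.70, 6.35 and 6.54 with siLUC, 6.49, 6.80, 6.63 and 6.83 with siLRH-1 #1, and 6.84, 6.59, 6.60 and 6.56 with siLRH-1 #2. The log2 fold changes of KLF5 were 0.18 (95% interval 0.01 to 0.35, adjusted p = 0.159 from limma) and 0.14 (−0.03 to 0.31, adjusted p = 0.427). With the array set as a block they were 0.18 and 0.15, neither of them called (adjusted p = 0.172 and 0.397 from limma). The set of 7 arrays alone gave 0.26 and 0.39 and the set of 5 gave −0.07 and −0.12, none of them called, with a single array in some groups. Without siLUC replicate 2 and siLRH-1 #2 replicate 1 together, KLF5 had 0.24 with siLRH-1 #1 and was called (adjusted p = 0.0412).

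KLF9 and KLF13 belong to the basic transcription element binding group, which recruits the SIN3A corepressor. KLF9 is also known as a gene induced by glucocorticoids and thyroid hormone, and KLF13 as an activator of the chemokine gene CCL5 in T lymphocytes. KLF13 had 7.81, 7.93, 7.87 and 7.96 with siLUC, 8.08, 8.20, 8.00 and 7.88 with siLRH-1 #1, and 7.87, 7.90, 7.99 and 7.96 with siLRH-1 #2. All but 1 of the siLRH-1 #1 arrays were above the siLUC arrays, and the log2 fold change of KLF13 was 0.15 (95% interval 0.01 to 0.28, unadjusted p = 0.0384 and adjusted p = 0.149 from limma), against 0.04 (−0.10 to 0.18) with siLRH-1 #2. The siLRH-1 #1 group also had the widest spread, at an SD of 0.13. KLF9 had log2 intensities from 7.07 to 7.36 with siLUC, 7.09 to 7.33 with siLRH-1 #1 and 7.08 to 7.26 with siLRH-1 #2. Its log2 fold changes were 0.01 (−0.14 to 0.16) and −0.03 (−0.18 to 0.12), with overlapping groups.

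KLF10 is known as a TGF-β-inducible early gene that represses transcription through SIN3A. Its brightest probe had 7.47, 7.42, 7.43 and 7.54 with siLUC, 7.63, 7.64, 7.55 and 7.48 with siLRH-1 #1, and 7.46, 7.58, 7.45 and 7.61 with siLRH-1 #2. The log2 fold changes of this probe were 0.11 (95% interval −0.02 to 0.24) and 0.06 (−0.07 to 0.19). The second probe had 0.10 (−0.04 to 0.24) and 0.00 (−0.13 to 0.14), and the third, which was dim, 0.03 (−0.10 to 0.16) and 0.04 (−0.09 to 0.17). Thus no KLF10 probe was called, and the groups overlapped on each.

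KLF3, a repressor that recruits CtBP, and KLF7, known in mice for the growth of neurons, were at the dim end of the scale. The KLF3 probes had means of 6.10 and 5.85 and the KLF7 probe 6.01, where the median of all probe means was 6.48 and the first quartile 6.07. The brighter KLF3 probe ranged from 5.97 to 6.21 with siLUC, 6.01 to 6.21 with siLRH-1 #1 and 5.94 to 6.13 with siLRH-1 #2. Its log2 fold changes were 0.05 (95% interval −0.09 to 0.20) and −0.04 (−0.19 to 0.10), and those of the second KLF3 probe were 0.03 (−0.14 to 0.19) with each siRNA. KLF7 ranged from 5.92 to 6.17, 5.87 to 6.28 and 5.89 to 6.11 in the same order, with log2 fold changes of 0.04 (−0.13 to 0.20) and −0.03 (−0.19 to 0.14). A dim probe follows its transcript poorly, so these values set no limit on a change of the transcript.

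With siLRH-1 #1, 12 of the 13 KLF probes had a log2 fold change above 0, KLF6 being the exception, and their median was 0.10. Among all probes, 8486 of 16381 were above 0 and the median was 0.01. With siLRH-1 #2, 7 of the 13 were above 0 and the median was 0.00, against 8140 of 16381 and 0.00 for all probes. By the brightest probe of each gene, 8 of 9 KLF genes were above 0 with siLRH-1 #1 (median 0.11). With siLRH-1 #2, 3 of 9 were (median −0.03). Over the 12 arrays, probes of the same gene had a Pearson r of 0.055 for KLF3, 0.36 for KLF4 and −0.034 to 0.29 for KLF10. The 11 KLF probes not called with either siRNA had log2 fold changes of at most 0.18 with siLRH-1 #1 and 0.14 with siLRH-1 #2 in either direction. The median SD within groups was 0.104 for the KLF probes and 0.0953 for all probes.

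Genes that act with the KLFs were taken from 8 lists, counted by the brightest probe of each gene, and 7 lists had measured members. A gene is called measured where a probe carried its single symbol, as 9910 of 16381 probes did. Other listed genes may have had a probe without a symbol. With both siRNAs in the same direction 2.84% of 7452 genes were called higher and 1.93% lower, and the medians of all genes were 0.01 for siLRH-1 #1 and 0.00 for siLRH-1 #2. Among relatives, the Sp factors and other KLFs, 2 of 16 listed genes were measured and 0 were called by limma. KLF1, the erythroid factor of globin genes, had 0.03 and −0.04, and KLF15, a factor of glucose and amino acid metabolism, had 0.02 and 0.02. Both were dim, with group means between 6.04 and 6.37. Of 17 listed genes of the TGF-β pathway, upstream of KLF10, 0 were analysed here.

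Among the cofactors of KLFs, 9 of 16 listed genes were measured, and 1 rose with both siRNAs, 0 fell and 8 were not called with both. The gene that rose was HDAC3, a histone deacetylase of the NCOR complexes, whose mean was 9.04 ± 0.10 (SD, n = 4) in siLUC cells, against 9.69 ± 0.084 for siLRH-1 #1 and 9.50 ± 0.093 for siLRH-1 #2. Its log2 fold changes were 0.64 and 0.46 (standard error 0.067, adjusted p = 2.02e-07 and 0.000148 from limma), and its groups did not overlap with siLUC. The medians of this list were −0.01 and 0.02. Of the ubiquitin ligases and deubiquitinases, 3 of 11 listed genes were measured, and 0 of these 3 were called with both siRNAs. The listed gene USP10 was not analysed here, and the paper reports it lower with both siRNAs in HCT116 cells. FBXW7, which marks KLF5 for degradation, rose by 0.18 with siLRH-1 #1 (limma, adjusted p = 0.0392), while siLRH-1 #2 gave 0.16 (adjusted p = 0.151). The call of FBXW7 was lost in 11 of 27 alternative settings, among them those without siLUC replicate 2, 3 or 4 or siLRH-1 #1 replicate 3 or 4 (adjusted p between 0.0601 and 0.165), the 8 arrays of the comparison alone (adjusted p = 0.0599) and the mean of its probes (adjusted p = 0.141). The medians of this list were 0.17 and 0.04.

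Among upstream genes, 5 of 8 listed members of the ERK5 and MEF2 pathway, which induces KLF2 and KLF4 in endothelium, were measured, and 0 were called with both siRNAs. MEF2A, a MEF2 transcription factor, had 0.18 (adjusted p = 0.0543 from limma) and 0.09, and the medians were 0.12 and 0.09. Of the glucocorticoid and clock genes, which with KLF9 respond to steroid and daily signals, 6 of 15 were measured and 0 were called with both. DBP, a clock output factor, had 0.14 with siLRH-1 #1 and rose by 0.35 with siLRH-1 #2 (adjusted p = 0.00444 from limma), although its groups overlapped. The call of DBP was lost in 4 of 26 alternative settings. Among them were the own variance of each probe (adjusted p = 0.0654) and siLUC replicate 2 and siLRH-1 #2 replicate 1 left out together (adjusted p = 0.154). The medians of this list were 0.00 and 0.10. Of the list of Notch, CDX and APC genes, which act on KLF4 in the intestine, 5 of 13 were measured and 0 were called with both. HES1, a Notch target, rose by 0.24 with siLRH-1 #1 (limma, adjusted p = 0.00882), while siLRH-1 #2 gave 0.18 (adjusted p = 0.109), with all 8 knockdown arrays above the siLUC arrays. The medians were 0.09 and 0.07.

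**Figure D5:**
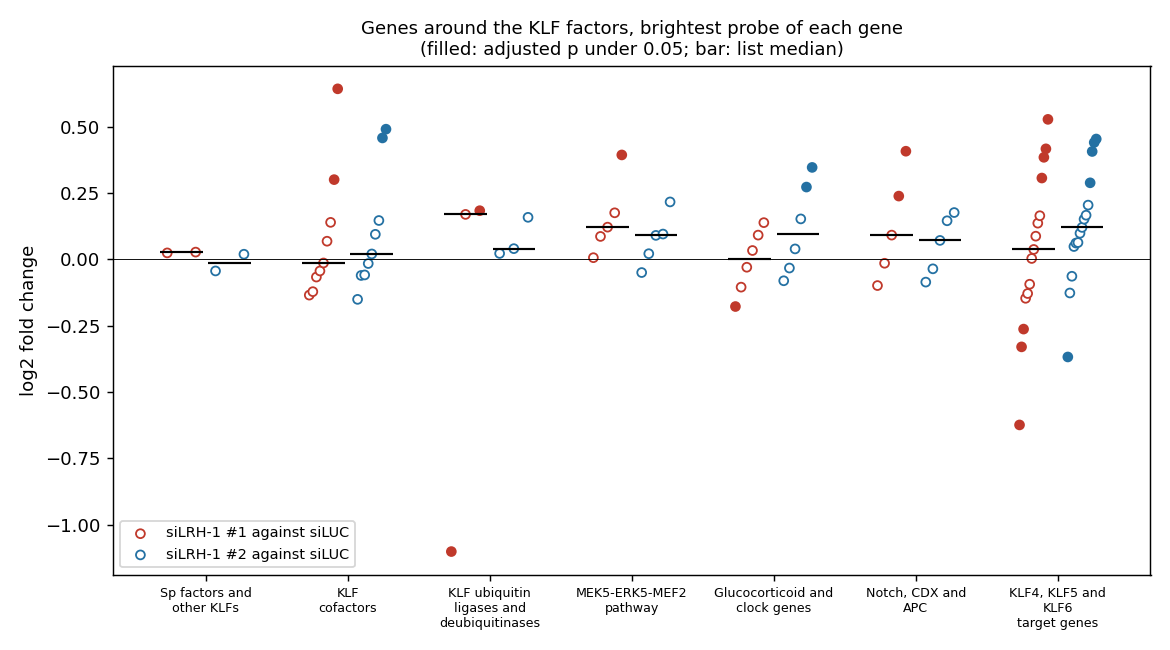
Log2 fold change (y axis) of each measured gene of 7 lists around the KLFs with siLRH-1 #1 (red) and siLRH-1 #2 (blue) against siLUC, by the brightest probe of the gene, with list medians as black bars and filled points at an adjusted p under 0.05. Called genes lie above and below 0 in the target list, and FBXW11 is the lowest point, at −1.10 with siLRH-1 #1.

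Of 20 genes known as targets of KLF4, KLF5 or KLF6 in various cells, 15 were measured. With both siRNAs 3 rose, 1 fell and 11 were not called with both, and the medians were 0.04 and 0.12. CDKN1A, which KLF4 and KLF6 are known to activate, rose by 0.42 and 0.45 (standard error 0.066, adjusted p = 6.19e-05 and 0.000134 from limma). KLF4 was not called with either siRNA, and KLF6 was called lower with siLRH-1 #1 alone (adjusted p = 0.0381, and 0.0917 with siLRH-1 #2, from limma). CDK1, a mitotic kinase that KLF5 is known to promote, rose by 0.38 and 0.44. Its call was lost in 1 of 27 alternative settings with siLRH-1 #1 and in 2 of 27 with siLRH-1 #2. The latter included the own variance of each probe (adjusted p = 0.0599). MYC, a growth-promoting transcription factor, fell from 12.16 ± 0.099 (SD, n = 4) in siLUC cells to 11.83 ± 0.11 for siLRH-1 #1 and 11.79 ± 0.084 for siLRH-1 #2, by 0.33 and 0.37 on the log2 scale (adjusted p = 0.00119 and 0.00146 from limma). The third rising gene was CCNB1, with log2 fold changes of 0.53 and 0.29. These genes are controlled by many other factors, and whether a KLF takes part in their change was not tested.

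The medians of the arrays were 6.49 to 6.50, and within a group no pair of arrays correlated below 0.996. Of 12 epithelial markers 10 were measured, with probe means up to 12.5 and 8 above the median of all probes, EPCAM among them at 12.12. The mean of these 10 lay between 9.05 and 9.09 on the siLUC arrays, 8.96 and 9.0 with siLRH-1 #1, and 9.01 and 9.04 with siLRH-1 #2, so the groups did not overlap. With siLRH-1 #1, 5 of the 10 were called by limma, against 1752 of all 7452 genes by their brightest probe. The adhesion genes EPCAM and CDH1 rose by 0.22 and 0.31, and the keratin genes KRT8 and KRT18 and the epithelial factor ELF3 fell by 0.23, 0.25 and 0.38. With siLRH-1 #2, 0 of the 10 were called by limma, against 625 of 7452 genes, and EPCAM and CDH1 came closest (adjusted p = 0.0646 and 0.0630). The part of these epithelial genes in the KLF values was not tested. Of 7 fibroblast markers 3 were measured, between 5.97 and 6.33 and all below the median of all probes. Of 6 leukocyte markers 3 were measured, of which CD68, a lysosomal gene that other cells also express, was at 7.95, CD14 at 6.12 and LYZ at 6.11. CD68 fell by 0.26 with siLRH-1 #1 (adjusted p = 0.00276 from limma). Of 4 endothelial markers 0 were analysed here, so these values do not test for endothelial cells, in which KLF2 is high.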

How the data were processed

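RNA of 12 HCT116 cultures, 4 per siRNA, was measured on Illumina HumanHT-12 v4 BeadChips. The deposited values are log2 intensities. According to the methods, the authors used GenomeStudio for the images, kept probes with a detection p of 0.05 or lower in at least 1 sample, and applied quantile normalization in Partek. Versions and the background correction are not given in the sources used here. A shift shared by most transcripts would be lost in quantile normalization. The 24 signal and detection columns of the non-normalized table match no sample's labels and were not used, so it is not known whether a dim KLF probe was detected on a given array. Precision is limited by the number of arrays.

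The platform table gave a single gene symbol for 9910 of 16381 probes, several for 4 and none for 6467. The gene IDs of 9904 were found in the RefSeq table (GRCh38.p14), which changed 0 symbols. One linear model with 3 groups was fitted to all probes with limma 3.58.1 in R 4.3.3 (9 residual and 14.6 prior degrees of freedom), and p-values were adjusted by Benjamini-Hochberg over all probes, with a threshold of 0.05. The model was tested on simulated data. Figures were made in matplotlib 3.10.9 under Python 3.11.15. The MEF2 consensus was searched as CTA, 4 bases of A or T, and TAG.

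The members, the gene lists and the tests were chosen with earlier results of these data known. The genes named were all probes of the members, the measured Sp factors and other KLFs and, from each other list, up to 3 genes called with both siRNAs in the same direction with the largest smaller change, or else the 1 gene closest to it. The genes most like a member called with both siRNAs were to be named, and 0 members qualified. CCNB1, FBXW11, MEF2D, BIRC5, KAT2B, CDKN1B and the markers named were picked once their values had been seen. The alternatives tried were the replicate number as a block, the own variance of each probe, an intensity trend, the 8 arrays of a comparison alone, array weights, a mean log2 of at least 7, 16 added before log2, repeated quantile normalization, centring on array medians, a threshold of 0.01, each array left out in turn, the array set as a block or alone, the mean of the probes of a gene and, chosen after the data were seen, 2 arrays left out together.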

Additional observations from a re-analysis of the deposited data

Results flagged for a closer look

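KLF2 differed between the siRNAs, with a log2 difference of 0.53 (95% interval 0.37 to 0.69, adjusted p = 4e-05 from limma), and its 4 siLRH-1 #1 arrays were all above and its 4 siLRH-1 #2 arrays all below the siLUC arrays. In 3 of 39 groups of 4 values, 1 array stood far from the rest by Dixon's criterion, which by chance alone does so in about 1 group in 20. For KLF2, siLRH-1 #2 replicate 1 was at 10.94, while the other arrays of that group lay between 11.19 and 11.23. For KLF6 the same array was at 10.46, while the others lay between 10.56 and 10.57. This array is the only one of its group in the set of 7 arrays, and the part of the set in these values was not tested beyond the model with the set as a block. For the dimmer KLF3 probe, siLUC replicate 3 was at 6.09, while the others lay between 5.72 and 5.78.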

How the results depend on the processing

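Of 1026 alternative values of KLF probes, 1009 stayed on their side of the threshold, 13 lost a call, 4 gained one and 0 called values changed sign. With siLRH-1 #1, the count of 2 called KLF probes became 1 with the replicate number as a block (KLF6, adjusted p = 0.0540), the 8 arrays of the comparison alone, repeated quantile normalization, a threshold of 0.01 and the set of 7 arrays alone, and 0 in the set of 5 arrays, which holds 1 array each of siLUC and siLRH-1 #1. It ranged from 1 to 2 when each array was left out in turn. With 2 arrays left out together it stayed at 2, with KLF5 in place of KLF6. With siLRH-1 #2, the count of 0 became 1 at a mean log2 of at least 7 and with the mean of the probes of each gene (KLF6 in both), and 1 with the array set as a block (KLF2). The count with both siRNAs in the same direction, 0, became 1 at a mean log2 of at least 7 and with the mean of the probes of each gene, settings that test fewer features. At a mean log2 of at least 7, 8 KLF probes remained. For siLRH-1 #2 with the array set as a block, 8.72% of all probes were called. The shares of all features called in the other settings are not given here, so these counts have no background beside them. With the array set as a block, probes called in opposite directions by the siRNAs numbered 135, against 8 without it, and those called in the same direction 567, against 531. The replicate block changed no other call of a KLF probe. Between same-numbered arrays, deviations from the group means correlated between −0.041 and 0.043. Whether such arrays shared a culture or harvest is not given in the sources used here, and these correlations cannot tell. Background correction and detection filters from the non-normalized signals were planned and not run. Of 13 KLF probes, 4 were below the median of all probe means, and that of KLF5 was only just above it. For these a change of the transcript may not have been detectable.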

Other observations

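Several genes of the lists around the KLFs, chosen after their values were seen, moved with 1 siRNA and differed between the siRNAs. FBXW11, a subunit of ubiquitin ligases that is known to act on KLF4, fell from 9.70 ± 0.18 (SD, n = 4) in siLUC cells to 8.60 ± 0.19 for siLRH-1 #1 and was at 9.74 ± 0.18 for siLRH-1 #2. The difference between the siRNAs was −1.14 on the log2 scale (adjusted p = 2e-08 from limma). With the array set as a block FBXW11 had 0.21 with siLRH-1 #2 and was called (adjusted p = 0.0485). MEF2D, a MEF2 factor, rose from 7.90 ± 0.13 to 8.30 ± 0.094 with siLRH-1 #1 and was at 7.92 ± 0.11 with siLRH-1 #2. Between the siRNAs MEF2D differed by 0.37 (limma, adjusted p = 0.000888). BIRC5, an inhibitor of apoptosis and a known KLF5 target, fell by 0.62 with siLRH-1 #1 and had 0.06 with siLRH-1 #2. Between the siRNAs BIRC5 differed by −0.68 (limma, adjusted p = 8.32e-07). In the other direction, KAT2B, a histone acetyltransferase, and CDKN1B, which encodes the cell cycle inhibitor p27, rose with siLRH-1 #2. KAT2B had −0.01 with siLRH-1 #1 against 0.49 with siLRH-1 #2, and the siRNAs differed by −0.50 (adjusted p = 0.000690 from limma). CDKN1B had −0.09 and 0.41, and the siRNAs differed by −0.50 (adjusted p = 0.000262 from limma). The calls of KAT2B and CDKN1B with siLRH-1 #2 were lost with the own variance of each probe (adjusted p = 0.0876 and 0.0940) and with siLUC replicate 2 and siLRH-1 #2 replicate 1 left out together (adjusted p = 0.0737 and 0.147). Whether these genes act on KLF2, or on each other, was not tested.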
